A study of Mus musculus with 2 samples.

Results

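The 38 genes described here encode the enzymes, carriers and regulators by which the liver makes fatty acids and supplies the NADPH that this synthesis consumes. They were listed by name, from citrate export to elongation and desaturation, together with pentose phosphate and fructose enzymes and the transcription factors of the pathway. Of these, 35 had a probe set that names a single gene, out of 22180 such genes on the array. Scd2, G6pdx and Tkt were left out of the main analysis because no probe set named them alone. An intensity filter was set at 4.68 on the log2 scale, the median over genes of the higher of the 2 arrays, and 32 of the 35 reached it, among 11090 genes in all. Slc13a5, Elovl7 and Pnpla3 stayed under it.

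Total RNA came from the liver of male mice with the Iah1 gene (Iah1-WT) or lacking it in the whole body (Iah1-KO). Iah1 is named after the yeast enzyme that cleaves the ester isoamyl acetate. Both genotypes ate chow until 6 weeks of age and then a high-fat diet for 12 weeks, and were killed at 18 weeks of age after 4 hours without food; the labels used here name no strain. RNA of 3 mice was combined on 1 Affymetrix array per genotype, so there is no replicate, no test between the genotypes and no p-value, and differences between mice cannot be told apart from differences between genotypes.

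In hepatocytes, citrate leaves the mitochondrion and is cleaved in the cytosol to acetyl-CoA, which is carboxylated to malonyl-CoA and joined by fatty acid synthase into palmitate. Palmitate is then lengthened by elongases and given double bonds by desaturases at the endoplasmic reticulum, and NADPH from malic enzyme and the pentose phosphate pathway pays for the reductions. Insulin acts on these genes through SREBP-1c, encoded by Srebf1, and sugars act through ChREBP, encoded by Mlxipl, with its partner Mlx.

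Most of these genes had a higher value on the Iah1-KO array. Of the 32 above the filter, 25 lay above 0 in the difference Iah1-KO minus Iah1-WT, against 44.3% of all 11090 genes, and 7 lay below 0, against 55.7%. Their median was 0.16 on the log2 scale against -0.02 for all genes. The lower of 2 size thresholds asked that the linear value on one array be at least 25% above that on the other (0.32 on the log2 scale). Past it, 6 members were higher in Iah1-KO, which is 18.8% of them against 6.62% of all genes, and none was lower, against 10.4% of all genes. At 1.5-fold, 1 member was higher, against 1.47% of all genes, and none was lower, against 2.45%. The 6 were Fasn, Fads6, Acly, Acacb, Me1 and Mid1ip1, while the 3 transcription factor genes lay slightly below 0. The list was drawn up with earlier results of these arrays known, so the counts describe these genes and are no independent evidence.

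Differences scatter less among bright probe sets, and 25 of the 32 members fell in the brightest of 4 equal groups of genes, ordered by the mean of both arrays. In that group the standard deviation of the differences was 0.16, against 0.36 in the dimmest. There, 20 of the 25 members lay above 0, against 44.8% of the 2773 genes of that group. Past the 25% threshold, 3 of the 25 were higher (Fasn, Acly and Me1), against 1.12% of the group, and none was lower, against 3.28%. At 1.5-fold, 1 of the 25 was higher, against 0.0721% of the group, and none was lower, against 0.649%. The only error these arrays hold is the disagreement of probe sets of the same gene. Its standard deviation was 0.11 for the difference of a single bright probe set (45 genes) and 0.26 over all probe sets above the filter (326 genes), and it leaves out mice, labelling and hybridisation.

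**Figure D1:**
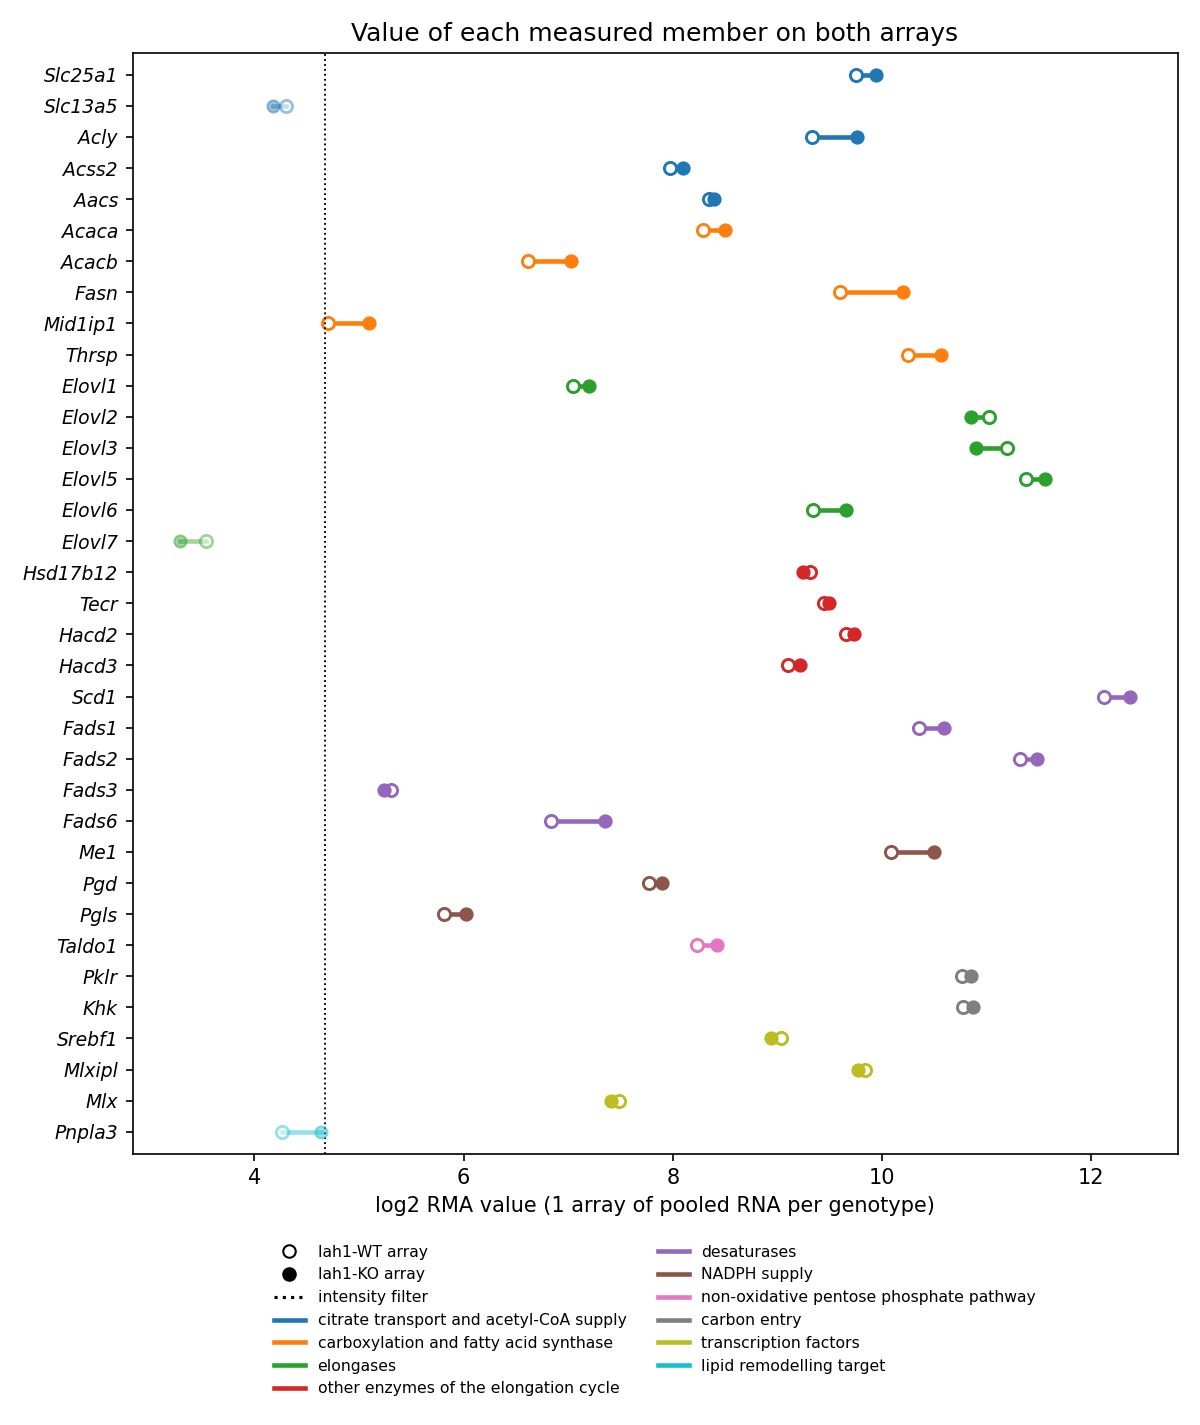
Log2 RMA value of each of the 35 measured members on the Iah1-WT array (open circle) and the Iah1-KO array (filled circle), coloured by role, with the intensity filter of 4.68 dotted and members under it faded. The filled circle lies to the right for every gene of carboxylation and fatty acid synthase and to the left for all 3 transcription factor genes; values of different genes come from different probes and are not comparable with each other.

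Carboxylation and chain synthesis had the largest median difference of the role groups. By the mean over probe sets, all 5 genes of this group were higher on the Iah1-KO array, against 44.3% of all genes above the filter. Their median difference was 0.39, which is the value of Mid1ip1. With each gene read from its brightest probe set alone, 4 of the 5 were higher, against 43.7% of all genes, and the median was 0.32. Fasn, the synthase that builds palmitate, was at 9.60 in Iah1-WT and 10.21 in Iah1-KO, which is 1.52-fold. Fasn (NCBI gene ID 14104) lies on chromosome 11, and its difference was the 2nd highest of the 2773 genes in the brightest group and the 146th highest of all 11090. Acacb, the carboxylase at the mitochondrial surface whose malonyl-CoA restrains fatty acid entry, went from 6.61 to 7.03, or 1.33-fold. Acaca, the cytosolic carboxylase that feeds the synthase, had a smaller difference, from 8.29 to 8.50. The gap of 0.20 between both carboxylase genes lay within the scatter of probe sets above the filter, whose standard deviation for such a contrast was 0.37.

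The remaining 2 genes of this group encode related small proteins that promote lipogenesis; the product of Mid1ip1 helps the carboxylase to polymerise. Thrsp, also known as Spot 14, was at 10.25 in Iah1-WT and 10.56 in Iah1-KO, or 1.24-fold, just short of the 25% threshold. Mid1ip1 averaged 4.71 and 5.10 and was counted as higher, but its 3 probe sets disagreed. The one with the strongest signal was at 6.82 on both arrays, and the others, both under the filter in Iah1-WT, differed by 0.20 and 0.97. The direction of Mid1ip1 therefore depends on the probe set. When each gene was read from its brightest probe set alone, 5 members in place of 6 were higher past the 25% threshold, against 6.54% of all genes.

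The start regions of Fasn, Fads6, Acly, Acacb and Thrsp, which had large differences, are shown beside those of the regulator gene Mlxipl, whose difference was -0.08. Each line holds the 250 bases before a RefSeq start in GRCm38.p6, 5′ to 3′ in the direction of the gene, from the RefSeq promoter table. Capitals mark the letters CCAAT (bound by NF-Y), CACGTG (the E-box core) and TCACNCCAC (a form of the sterol regulatory element), on either strand.
Fasn (chr11:120824548-120824797, minus strand): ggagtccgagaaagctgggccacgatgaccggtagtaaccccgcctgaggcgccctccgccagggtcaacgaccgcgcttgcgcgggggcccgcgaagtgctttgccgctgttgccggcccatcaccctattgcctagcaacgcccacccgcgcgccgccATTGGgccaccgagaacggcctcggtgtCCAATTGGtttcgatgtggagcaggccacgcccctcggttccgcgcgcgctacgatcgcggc
Fads6 (chr11:115297563-115297812, minus strand): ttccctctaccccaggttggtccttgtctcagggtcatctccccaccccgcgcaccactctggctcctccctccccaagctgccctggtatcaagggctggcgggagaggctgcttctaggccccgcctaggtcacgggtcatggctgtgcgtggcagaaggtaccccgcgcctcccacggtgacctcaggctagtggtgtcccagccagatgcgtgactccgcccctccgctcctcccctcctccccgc
Acly (chr11:100528001-100528250, minus strand): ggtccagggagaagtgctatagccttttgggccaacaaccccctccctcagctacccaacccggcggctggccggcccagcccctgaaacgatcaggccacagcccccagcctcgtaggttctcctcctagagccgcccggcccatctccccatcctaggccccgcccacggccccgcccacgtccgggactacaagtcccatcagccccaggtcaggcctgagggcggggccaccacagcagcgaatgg
Acacb (chr5:114165268-114165517, plus strand): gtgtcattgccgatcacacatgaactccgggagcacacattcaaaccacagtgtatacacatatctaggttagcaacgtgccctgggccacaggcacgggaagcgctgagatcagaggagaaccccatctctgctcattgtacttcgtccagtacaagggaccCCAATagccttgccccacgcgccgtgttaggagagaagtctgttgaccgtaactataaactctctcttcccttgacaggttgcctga
Thrsp (chr7:97417551-97417800, minus strand): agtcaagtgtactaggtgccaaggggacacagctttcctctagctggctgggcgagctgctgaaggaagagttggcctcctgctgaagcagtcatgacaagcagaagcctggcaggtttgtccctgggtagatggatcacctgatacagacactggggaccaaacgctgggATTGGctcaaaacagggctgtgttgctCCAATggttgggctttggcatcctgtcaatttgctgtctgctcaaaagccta
Mlxipl, upstream window (chr5:135089640-135089889, plus strand): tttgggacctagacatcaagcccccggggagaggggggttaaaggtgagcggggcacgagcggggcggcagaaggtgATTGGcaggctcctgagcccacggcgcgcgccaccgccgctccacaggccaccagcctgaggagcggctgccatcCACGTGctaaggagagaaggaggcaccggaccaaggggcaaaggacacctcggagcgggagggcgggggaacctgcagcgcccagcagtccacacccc
Mlxipl, downstream window (chr5:135106641-135106890, plus strand): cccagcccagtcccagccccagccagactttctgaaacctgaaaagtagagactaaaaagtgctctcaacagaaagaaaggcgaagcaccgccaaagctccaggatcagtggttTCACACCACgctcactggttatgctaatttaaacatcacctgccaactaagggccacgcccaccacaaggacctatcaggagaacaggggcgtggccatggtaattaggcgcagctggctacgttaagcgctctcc

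In the Fasn window CCAAT occurs 3 times, at 90 bases before the start on the reverse strand and as an overlapping pair from 62 to 55 bases before it. Thrsp carries it at 79 and 52 bases before its start, on opposite strands, and Acacb at 87. Of the genes not shown, Me1 has CCAAT at 208 bases before the start in 1 of its windows, and Mid1ip1 has none. The windows of Fads6 and Acly, whose differences of 0.51 and 0.43 were larger than those of Acacb and Thrsp, hold none of these 3 motifs. Mlxipl has CCAAT and the E-box core before one start and the sterol element letters before the other. Among the 34 of the 38 listed genes with a RefSeq window, 20 held CCAAT, or 58.8%. The share was 39.2% of 8767 genes above the filter and 37.5% of all 27025 genes with a window. CACGTG was found in 6 (Slc25a1, Elovl5, Hacd3, Khk, Mlx and Mlxipl), or 17.6%, against 10.2% of genes above the filter and 6.86% of all genes. TCACNCCAC was found only for Mlxipl, against 1.23% of genes above the filter and 1.22% of all genes. GGGCGG, the GC-box, was in 25 of the 34, or 73.5%, against 62.9% of genes above the filter and 35.4% of all genes. The 34 include Slc13a5, Elovl7 and Pnpla3, which were under the filter, and G6pdx and Tkt, which were not in the main analysis. Scd1, Scd2, Elovl3 and Fads1 had no window, so these shares do not cover them. Some genes have more than 1 window, which raises their chance of a match, and a match describes letters only.

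Among genes of acetyl-CoA supply, Acly had the largest difference. Acly, which cleaves exported citrate to acetyl-CoA, was at 9.33 in Iah1-WT and 9.76 in Iah1-KO, 1.35-fold, the 8th highest difference of the brightest group. Slc25a1, the mitochondrial citrate carrier upstream of it, went from 9.75 to 9.95. Genes of other routes to cytosolic acetyl-CoA and acetoacetyl-CoA differed less: Acss2, which activates acetate, from 7.97 to 8.10, and Aacs, which activates acetoacetate, from 8.35 to 8.39. All 4 genes of this group above the filter lay above 0, against 44.3% of all genes, with a median of 0.16. The plasma membrane citrate carrier gene Slc13a5 was under the filter on both arrays, at 4.30 and 4.18.

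The NADPH group was led by malic enzyme. Me1, which makes NADPH while turning malate into pyruvate, was at 10.09 in Iah1-WT and 10.50 in Iah1-KO, 1.33-fold and the 11th highest difference of the brightest group. The pentose phosphate genes differed less. Pgd, the second NADPH-forming dehydrogenase of that pathway, went from 7.77 to 7.89, and Pgls, the lactonase before it, from 5.81 to 6.03, with its 2 probe sets at 0.29 and 0.15. Taldo1, a transaldolase of the non-oxidative branch, went from 8.23 to 8.43. The excess of Me1 over Pgd, 0.28, compares with a standard deviation of 0.16 for a contrast between bright probe sets. Me1 and Pgd were the highest and lowest of the 3 NADPH genes above the filter, so that value cannot gauge their gap.

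The elongases went both ways. Elovl6, which extends palmitate to stearate, was at 9.34 in Iah1-WT and 9.65 in Iah1-KO, 1.24-fold and the 39th highest difference of the brightest group. Elovl5, which extends polyunsaturated chains, went from 11.38 to 11.56 and Elovl1, which extends saturated very long chains, from 7.05 to 7.20. In the opposite direction, Elovl3, an elongase of saturated and monounsaturated very long chains, was lower, from 11.19 to 10.90, and Elovl2, which makes long polyunsaturated chains, from 11.03 to 10.86. Elovl3 had the 112th lowest difference of the brightest group, and Elovl2 the 340th lowest. The contrast of Elovl6 with Elovl3 came to 0.60 on the log2 scale and that of Elovl5 with Elovl2 to 0.35. For a contrast between bright probe sets the standard deviation was 0.16. Elovl6 and Elovl3 were the highest and lowest of the elongases above the filter, and Elovl5 and Elovl2 came next to them. That value therefore cannot gauge either gap. Elovl7 was under the filter on both arrays.

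The enzymes that complete each elongation round stayed near 0. These are the ketoacyl-CoA reductase Hsd17b12 (9.31 in Iah1-WT and 9.25 in Iah1-KO), the dehydratases Hacd2 (9.66 and 9.74) and Hacd3 (9.10 and 9.21), and the enoyl-CoA reductase Tecr (9.45 and 9.49). Their differences had a median of 0.06 and a range of -0.07 to 0.11, against a range of -0.30 to 0.31 for the elongases above the filter.

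Of 5 desaturase genes above the filter, 4 were higher, against 44.3% of all genes. Scd2 is not among the 5. Scd1, which makes oleate and palmitoleate from saturated chains, was at 12.12 in Iah1-WT and 12.37 in Iah1-KO, a difference of 0.25 and the 80th highest of the brightest group. Fads1 and Fads2, the delta-5 and delta-6 desaturases of polyunsaturated fatty acid synthesis, went from 10.36 to 10.59 and from 11.32 to 11.49. Fads3, which lies in an unbroken run of protein-coding genes with Fads2 and Fads1 on chromosome 19 in RefSeq, was at 5.31 and 5.24. Fads6, a less studied member of the family encoded on chromosome 11, had the second-largest difference of the members above the filter, from 6.84 to 7.35 or 1.43-fold. It was outside the brightest group, and its rank was 243rd of 11090.

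Genes of carbon entry differed little. Pklr, liver pyruvate kinase and a well-known ChREBP target, was at 10.76 in Iah1-WT and 10.86 in Iah1-KO, and Khk, which phosphorylates fructose, at 10.77 and 10.87. Pklr lay 0.51 below Fasn, the member with the largest difference. Pnpla3, a lipid droplet protein gene that SREBP-1c induces, was under the filter on both arrays, at 4.26 and 4.64.

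The 3 transcription factor genes lay slightly below 0, as did the enzyme genes Elovl2, Elovl3, Hsd17b12 and Fads3. Srebf1 was at 9.04 in Iah1-WT and 8.94 in Iah1-KO, Mlxipl at 9.84 and 9.77, and Mlx at 7.48 and 7.41. The differences of Srebf1 (-0.10) and Mlxipl (-0.08) were smaller than the scatter of a single bright probe set, 0.11. Mlx was outside the brightest group, and its difference of -0.08 was smaller than the scatter over all probe sets above the filter, 0.26. The contrast of Fasn with Srebf1 was 0.70 and that with Mlxipl 0.68. Fasn had the largest difference of the members above the filter, so these gaps do not stand for the other members. These arrays measure transcripts and give neither the cleavage of SREBP-1c nor the activity of ChREBP.

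**Figure D2:**
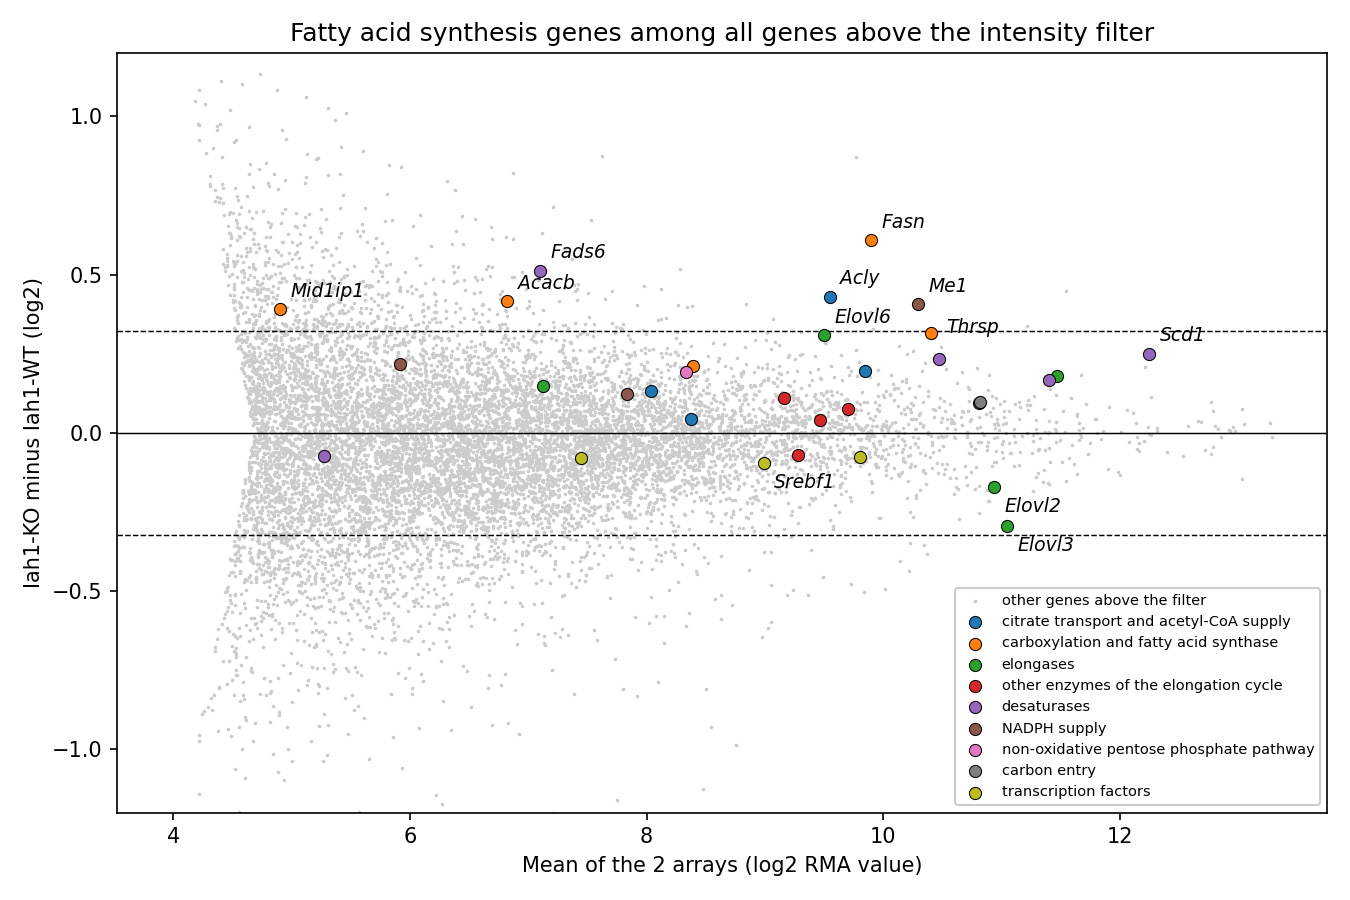
Difference Iah1-KO minus Iah1-WT (log2) against the mean of both arrays (log2 RMA value) for genes above the filter, with members coloured by role, dashed lines at the 25% threshold, and Iah1 and 20 other genes beyond the plotted range left out. Fasn, Acly and Me1 stand above the dashed line where the grey cloud is narrow, while Elovl2 and Elovl3 lie on the lower side.

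Genes around the pathway were read from 7 lists, whose medians lay between -0.05 and 0.08. Their counts are to be read against all genes above the filter, of which 44.3% lay above 0, 6.62% were higher past the 25% threshold and 10.4% were lower past it. In the list of SREBP and liver X receptor control, 7 of the 18 genes past the filter lay above 0, with a median of -0.01. Past the 25% threshold 3 were higher and none lower: Srebf2, the sterol-responsive relative of Srebf1 (6.54 and 6.98), Insig1, which holds SREBP in the endoplasmic reticulum (9.79 and 10.16), and Usf2, an E-box factor (6.44 and 6.77). Scap, the SREBP escort protein gene, differed by -0.02, and Insig2 by -0.10. Nr1h3, the liver X receptor alpha gene, differed by 0.05.

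Upstream glucose and fructose genes had 8 of 16 above 0, near the share of all genes, with a median of 0.02 and none past the 25% threshold either way. Among other NADPH and pentose phosphate enzymes, 6 of 14 lay above 0, again near that share, with a median of -0.00 (-0.0043) and none past that threshold; the list includes Pgls and Taldo1. Of 8 NADPH-using genes of oxidant defence, 6 lay above 0, with a median of 0.08 and none past it. The 17 genes of AMPK and insulin control had 5 above 0 and a median of -0.05, with none past it.

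Mitochondrial fatty acid synthesis, a separate pathway that feeds lipoic acid formation, had 4 of 9 genes above 0, the same share as all genes to within 1 gene, and a median of -0.03. Past the 25% threshold, Mcat, its malonyl transferase (6.69 and 7.20), and Oxsm, its ketoacyl synthase (5.49 and 5.90), were higher and Lipt1, a lipoyl transferase (5.42 and 4.97), was lower. Of 9 further elongation, desaturation and acyl-CoA genes, 5 lay above 0 with a median of 0.03. In that list none was higher past that threshold and Degs1, the desaturase of ceramide synthesis, was lower, at 8.26 and 7.83.

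**Figure D3:**
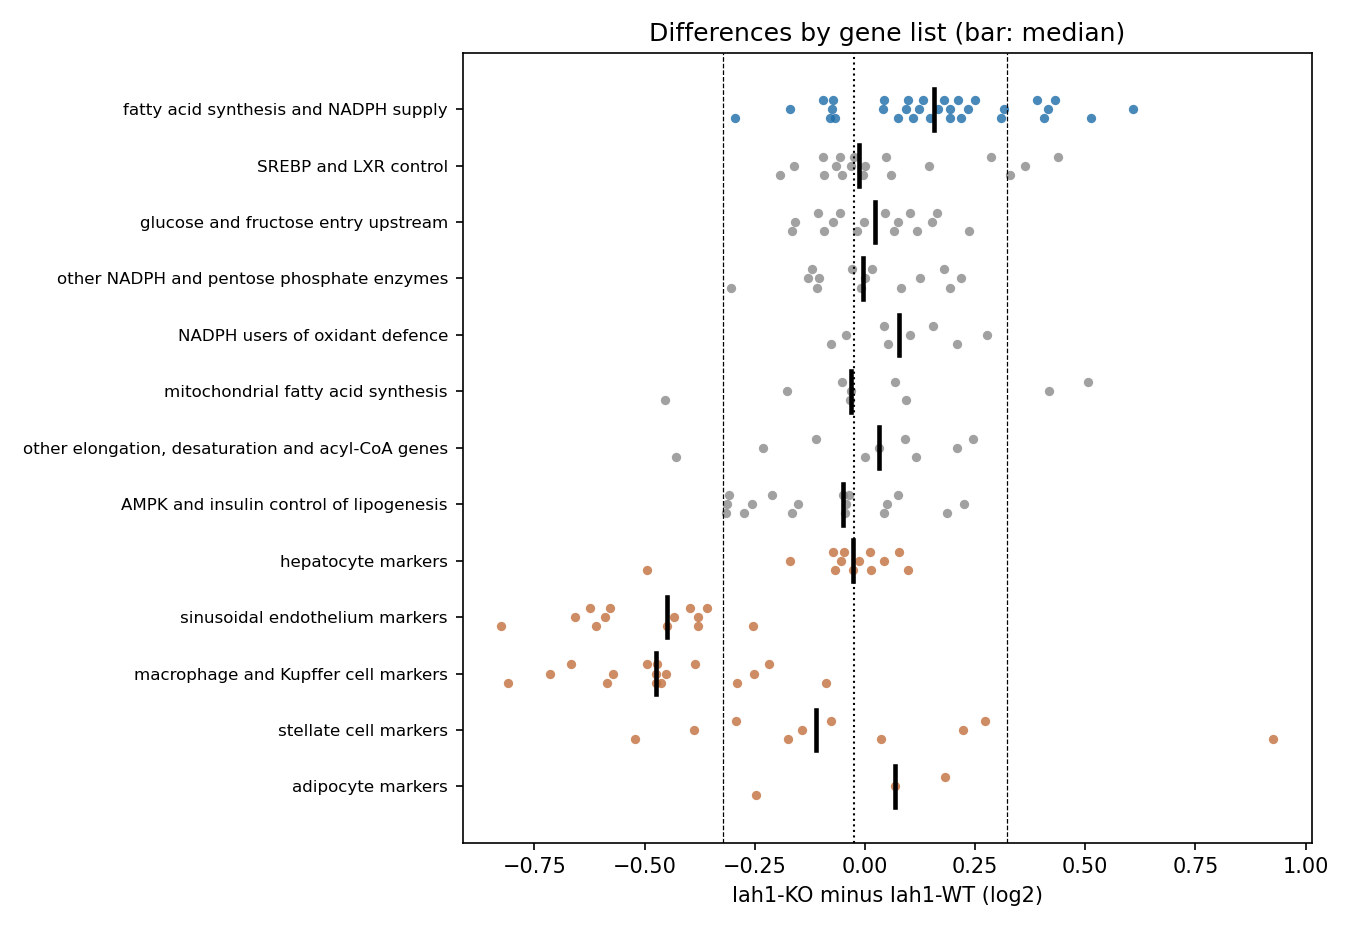
Difference Iah1-KO minus Iah1-WT (log2) of each gene above the filter, by list, with a bar at the list median, a dotted line at the median of all genes (-0.02) and dashed lines at the 25% threshold. The fatty acid synthesis genes have a median of 0.16, the related pathway lists lie between -0.05 and 0.08, and markers of sinusoidal endothelium and of macrophages lie at -0.45 and -0.47.

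The targeted transcript followed the labels. Iah1 was at 8.59 in Iah1-WT and 3.90 in Iah1-KO, under the filter and therefore at least 15.1-fold lower against it. Hepatocyte markers were bright on both arrays, with a summed linear signal of 58926 and 58819 over 13 genes and a median difference of -0.03; Serpina1e (-0.49), Serpina1b (-0.17) and Apob (0.10) differed most. Markers of 2 other liver cell types were lower in Iah1-KO as whole lists. All 13 sinusoidal endothelial markers were lower, led by Lyve1 (-0.83), Tek (-0.66) and Oit3 (-0.62), and their summed signal was 0.71 times that of Iah1-WT. All 16 macrophage and Kupffer cell markers were lower, led by C1qb (-0.81), Vsig4 (-0.71) and Adgre1 (-0.67), with the same ratio of 0.71. Of 10 stellate cell markers 6 lay below 0, near the 55.7% of all genes, with a summed ratio of 0.91; Des (0.93), Lrat (-0.52) and Ngfr (-0.39) differed most. Des was under the filter in Iah1-WT and passed only through its Iah1-KO value, 4.68. In bulk liver RNA, fewer cells of a type and less RNA per cell cannot be told apart, and the part of these shifts in the values of the fatty acid synthesis genes was not tested. The adipocyte genes Adipoq, Plin1, Lep and Retn were under the filter on both arrays; the others that passed were Lipe (0.07), Fabp4 (-0.25) and Car3 (0.18), which hepatocytes or macrophages also express.

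**Figure D4:**
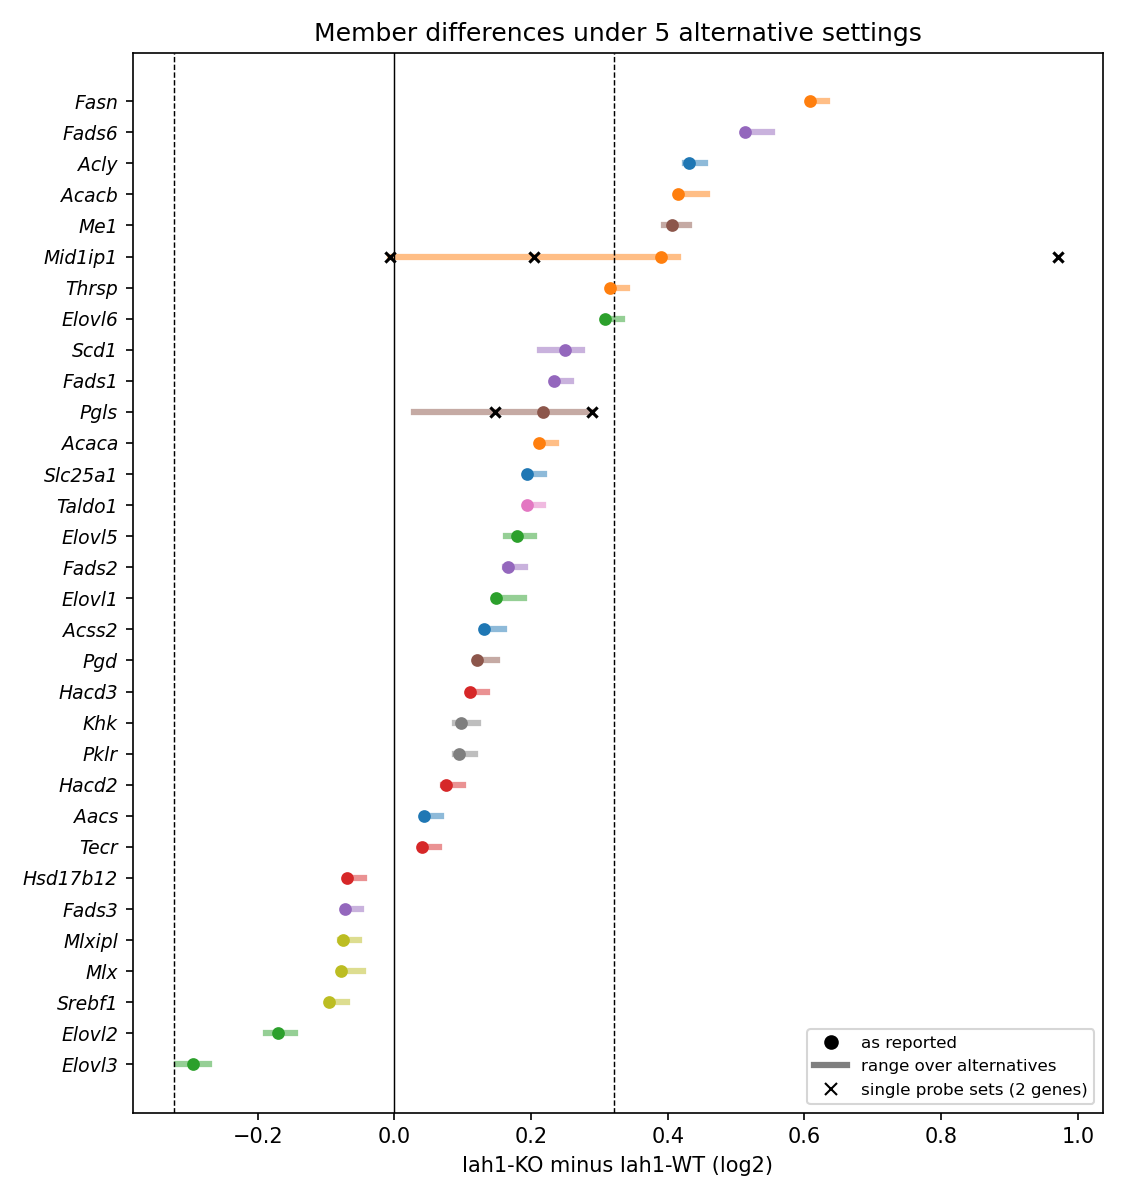
Difference Iah1-KO minus Iah1-WT (log2) of the 32 members above the filter, as reported (dots) and over 5 alternative settings (lines), coloured by role, with single probe sets of Mid1ip1 and Pgls as crosses. Mid1ip1 is the member whose range reaches past 0, and the 3 transcription factor genes stay below 0 throughout.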

How the data were processed

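Per probe set, the deposited table holds a log2 value for each array, made by the authors with RMA in Affymetrix Expression Console 1.3.0, per the submitters' processing notes. RMA subtracts background, equalises the arrays' distributions and summarises probes, which would remove a shift shared by all transcripts and compresses differences of dim probe sets. Labelling used 100 ng of total RNA, per the labels' protocols. The genome build of the array's design was not given in the sources used here.

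Of 41345 probe sets, the platform annotation gave 23521 a single gene symbol, 1814 several and 16010 none. Only the first kind were used outside the alternatives, and a gene's value is the mean of its probe sets' log2 values. All 35 measured members matched RefSeq (GRCm38.p6) by gene ID. The array medians were 4.08 for Iah1-WT and 4.10 for Iah1-KO; precision is limited by the number of arrays. Genes were counted by size of the difference, since 1 array per genotype allows no test. Members and lists were chosen with earlier results of these data known. The named genes were all members and, where past the filter and the 25% threshold, up to 4 per pathway list, plus 3 per marker list; of the pathway genes, Scap, Insig2 and Nr1h3 were named after their values were seen. Alternatives were a filter at the 75th percentile or none, subtraction of a loess curve (span 0.4), quantile normalization again, median centring, the brightest probe set, probe sets with several symbols, and the list mean. Python 3.11.15 and statsmodels 0.14.6 were used, and the counting steps were tested on simulated data.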

Additional observations from a re-analysis of the deposited data

Results flagged for a closer look

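A probe set annotated with both Tkt, the transketolase gene of the non-oxidative pentose phosphate branch, and the microRNA gene Mir3076 was left out of the main comparison. It was counted for Tkt only in the alternative with probe sets of several symbols. Its value was 7.52 in Iah1-WT and 7.89 in Iah1-KO, a difference of 0.38, so it carried a signal higher than on the control array. It cannot be assigned to either gene here. The other such probe sets with a member's name were not higher in Iah1-KO: the one annotated with both Scd2 and Mir5114 was at 6.08 and 5.97, and the one annotated with both Niban3 and Pgls at 4.67 and 4.32.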

How the results depend on the processing

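The median difference of the members was 0.16 as reported and stayed between 0.14 and 0.18 under all alternatives run. The number above 0 was 23 to 26, of 29 to 35 members depending on the filter and annotation. Of all genes, 43.0% to 50% lay above 0 under these alternatives. The number higher past the 25% threshold was 5 to 8, and the share of all genes moved with the setting. It was 5 of 29 members against 2.34% with the filter at the 75th percentile, and 7 of 35 against 11.1% with no filter. After median centring it was 8 of 32 against 7.77%. No member was lower past the threshold under any alternative run, against 5.70% to 11.2% of all genes. By 1.5-fold, 1 member was higher under every alternative run. The share of all genes past 1.5-fold was taken only for the main setting, where 1.47% were higher. Under the alternatives this count therefore has no share of all genes to be read against. Thrsp and Elovl6 also passed the 25% threshold after median centring, which set the median of all genes to 0, and Thrsp after repeated quantile normalization. Mid1ip1 changed sign, to -0.01 (-0.00599), with its brightest probe set, and another of its probe sets gave 0.97. Pgls was at 0.03 once a probe set shared with Niban3 was counted. No paired analysis was possible because each genotype has 1 array, and for the same reason no array could be left out. Low signal limits Slc13a5, Elovl7 and Pnpla3, whose values on both arrays lay under the filter.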
